A study of Mus musculus with 18 samples.

Results

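The AP-1 transcription factor genes Jun, Junb, Jund, Fos, Fosb, Fosl1 and Fosl2 and their relatives Atf3 and Batf were followed across 6 lists of open chromatin regions from mouse blood stem cells (HSC) and progenitors (HPC). A region belonged to them where the summit of a deposited peak lay in the mm10 body of one of the 9 genes or within 100 kb of it. This gave 266 regions, out of 94178 once the 6 lists were merged, and 2117 of 597826 peak rows. The regions come from ATAC-seq, in which the Tn5 transposase cuts and tags accessible DNA.

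The knockout HPC group had 2 samples and the knockout HSC group 2, both from 8-week-old Kmt2c f/f; Vav-Cre mice, whose genotype is given as Kmt2c -/-. Kmt2c encodes an enhancer-bound histone H3 lysine 4 methyltransferase, and the Vav promoter drives Cre in blood cells at large, so the deletion is not limited to stem cells. Their counterparts were 4 wild-type HPC samples and 2 wild-type HSC samples of the same age. The 5-fluorouracil group held 4 samples of wild-type HSC from 16-week-old mice given 150 mg/kg every 3 weeks, 3 times. The vehicle group held 4 samples of wild-type HSC of that age given PBS on the same schedule. The 16-week HSC lists thus differ from the 8-week HSC lists in age, injections and samples pooled (4 against 2), and these cannot be told apart. Wild-type HPC likewise pooled 4 samples, against 2 for knockout HPC and 2 for wild-type HSC. In those pairs samples pooled cannot be told apart from genotype or cell type. The labels do not say which part of Kmt2c was deleted, so the peak lists do not check the genotype. The labels name no sort markers and do not say whether samples came from separate animals. Each group had 1 peak list, so no spread between samples and no test was available, and intervals below are 95% Wilson intervals that cover counting error over regions only.

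AP-1 is a family of dimers built from basic leucine zipper proteins. Jun proteins pair with each other or with Fos proteins and bind the TGACTCA site, Batf pairs with Jun proteins and can work beside IRF4 or IRF8, and Atf3 binds cyclic AMP response elements such as TGACGTCA. Fos, Fosb, Jun, Junb and Atf3 are immediate early or stress genes whose transcription starts within minutes of a stimulus through MAP kinases, SRF and CREB-type factors, and in blood stem cells the family has been tied to the passage between rest and activation.

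The promoters that the start-site results turn on are shown as the 250 bases upstream of the annotated start, taken from RefSeq on GRCm38.p6. Fos, Fosb, Jund and Atf3 are shown because their start had a region within 1 kb in some lists and not in others, and Jun and Batf as examples of starts with one in all 6. Capitals mark the TGACG core of a cyclic AMP response element on either strand, the TATAAA box of Fos, and in Jun the TTACCTCA and TGACATCA sites of its distal and proximal Jun/ATF elements. The windows are chr12:85473640-85473889 (plus strand) for Fos, chr7:19310046-19310295 (minus strand) for Fosb, chr8:70697489-70697738 (plus strand) for Jund, chr1:191183334-191183583 (minus strand) for Atf3, chr4:95052223-95052472 (minus strand) for Jun and chr12:85686470-85686719 (plus strand) for Batf.
Fos: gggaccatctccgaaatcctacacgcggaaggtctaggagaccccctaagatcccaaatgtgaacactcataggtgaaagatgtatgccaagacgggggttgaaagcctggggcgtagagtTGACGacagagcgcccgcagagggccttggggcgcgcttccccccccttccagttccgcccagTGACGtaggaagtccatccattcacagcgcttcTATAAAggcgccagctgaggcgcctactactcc
Fosb: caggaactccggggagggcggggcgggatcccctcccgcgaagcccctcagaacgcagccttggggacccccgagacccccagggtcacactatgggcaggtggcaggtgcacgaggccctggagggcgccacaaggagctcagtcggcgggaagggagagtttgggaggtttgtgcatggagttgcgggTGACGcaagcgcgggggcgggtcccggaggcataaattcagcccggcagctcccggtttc
Jund: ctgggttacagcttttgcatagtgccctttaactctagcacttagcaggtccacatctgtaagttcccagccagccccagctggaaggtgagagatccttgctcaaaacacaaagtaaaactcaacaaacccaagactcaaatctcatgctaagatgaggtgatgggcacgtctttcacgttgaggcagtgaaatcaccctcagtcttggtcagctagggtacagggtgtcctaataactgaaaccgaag
Atf3: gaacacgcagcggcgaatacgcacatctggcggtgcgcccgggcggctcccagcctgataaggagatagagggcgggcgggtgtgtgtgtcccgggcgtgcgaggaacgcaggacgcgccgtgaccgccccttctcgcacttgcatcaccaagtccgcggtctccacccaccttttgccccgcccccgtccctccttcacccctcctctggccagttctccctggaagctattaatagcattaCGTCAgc
Jun: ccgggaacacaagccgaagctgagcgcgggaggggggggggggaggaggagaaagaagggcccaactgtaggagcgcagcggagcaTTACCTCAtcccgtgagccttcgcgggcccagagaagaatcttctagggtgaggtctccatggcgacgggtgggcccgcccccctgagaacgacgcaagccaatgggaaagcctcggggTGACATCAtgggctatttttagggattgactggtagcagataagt
Batf: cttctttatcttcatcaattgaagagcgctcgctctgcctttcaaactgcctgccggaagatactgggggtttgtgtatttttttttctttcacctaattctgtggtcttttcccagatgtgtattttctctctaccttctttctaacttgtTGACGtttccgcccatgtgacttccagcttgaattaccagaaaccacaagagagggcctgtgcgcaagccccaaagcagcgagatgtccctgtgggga

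Fos carried TGACG at 129 and 66 bases before its start and TATAAA at 33. Fosb carried TGACG at 60 bases, Batf at 98, and Atf3, read on the other strand as CGTCA, at 7 bases before the start. In Jun, TTACCTCA began 164 bases and TGACATCA 45 bases before the start, and the Jund window held none of the motifs searched. Of the 9 genes 8 had an entry in the promoter table, and 5 of those 8 (with Junb, at 106 bases) held TGACG, against 20.2% of 21263 promoters of the same length searched on both strands. The full TGACGTCA, which contains TGACG on both strands, was in 0 of 8 and in 1.92% of all promoters. The AP-1 site TGACTCA was in 0 of 8 and 4.06%, and the SRF-type CArG box in 0 of 8 and 1.39%. TATAAA was in 1 of 8 and 11.6%, TGACATCA in 1 of 8 and 2.86%, and TTACCTCA in 1 of 8 and 0.607%. Fosb had 68.8% G and C in its window, Atf3 65.2%, Jun 61.2% and Fos 58.4%, while Jund had 47.6% and Batf 46.4%, against a median of 55.6% over all promoters. These are matches of letters in 1 window per gene and show no binding. Sequence further upstream or past the start was not searched. A count of 0, as for the CArG box, therefore does not show that these genes lack the site.

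The lists were of unequal length, with 52840 regions for knockout HPC, 65832 for wild-type HPC, 48620 for knockout HSC, 40073 for wild-type HSC, 71363 for 5-fluorouracil HSC and 80100 for vehicle HSC. Read depth is unknown, and the largest −log10 p in a list, which grows with depth, ran from 1546 in knockout HPC to 8849 in vehicle HSC. Of 9 stem cell markers with an annotated start, among them Hlf, Mecom and Kit, between 6 (wild-type HSC) and 9 had a region within 1 kb of it in each list, HPC lists included, so these markers do not set HPC apart from HSC here. Of 9 markers of myeloid and erythroid progenitors, 4 had one in each HPC list, 2 in each 8-week HSC list, 5 in 5-fluorouracil HSC and 6 in vehicle HSC. Cd48 and Fcgr3 made the difference between the HPC and the 8-week HSC lists, and Elane, Prtn3 and Ctsg had none in any list. T cell markers (3 with a start) and B cell markers (2) had none in any list, while S100a8, of neutrophils, had one in wild-type HPC and knockout HSC and Mertk, of macrophages, in every list.

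The 9 genes had regions in every list, but the number near each differed. Fos had 34 regions within 100 kb in knockout HPC, 30 in wild-type HPC, 20 in knockout HSC, 16 in wild-type HSC, 25 in 5-fluorouracil HSC and 28 in vehicle HSC. It was the only one of the 9 with more regions in both HPC lists than in vehicle HSC, the longest list. Jun had 5 in knockout HPC, against 13 in wild-type HPC, 9 in knockout HSC, 9 in wild-type HSC, 15 in 5-fluorouracil HSC and 16 in vehicle HSC. Its knockout HPC count was the lowest of any of the 9 genes in any list. Junb ranged from 20 regions in wild-type HSC to 34 in vehicle HSC, Jund from 23 in knockout HPC to 34 in 5-fluorouracil HSC, and Fosb from 20 in wild-type HSC to 39 in vehicle HSC. Fosl1 ranged from 18 to 24, Fosl2 from 8 to 17, Atf3 from 14 to 26 and Batf from 12 to 22, each lowest in wild-type HSC, the shortest list.

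Which gene a region serves cannot be read from its position. The member was the nearest protein-coding gene for 79 of the 266 regions (29.7%), and 12 lay inside a member's body. The windows of Junb, Jund, Fosb and Fosl1 hold 17, 13, 12 and 16 other protein-coding genes, those of Jun and Fos 1 each (Mysm1 and Tmed10). The Batf window holds Jdp2, a repressor of the same family, and the Atf3 window Batf3, a Batf relative. Jdp2, which lies between Fos and Batf on chromosome 12, was the nearest gene of 20 regions, and Batf3 of 8.

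**Figure D1:**
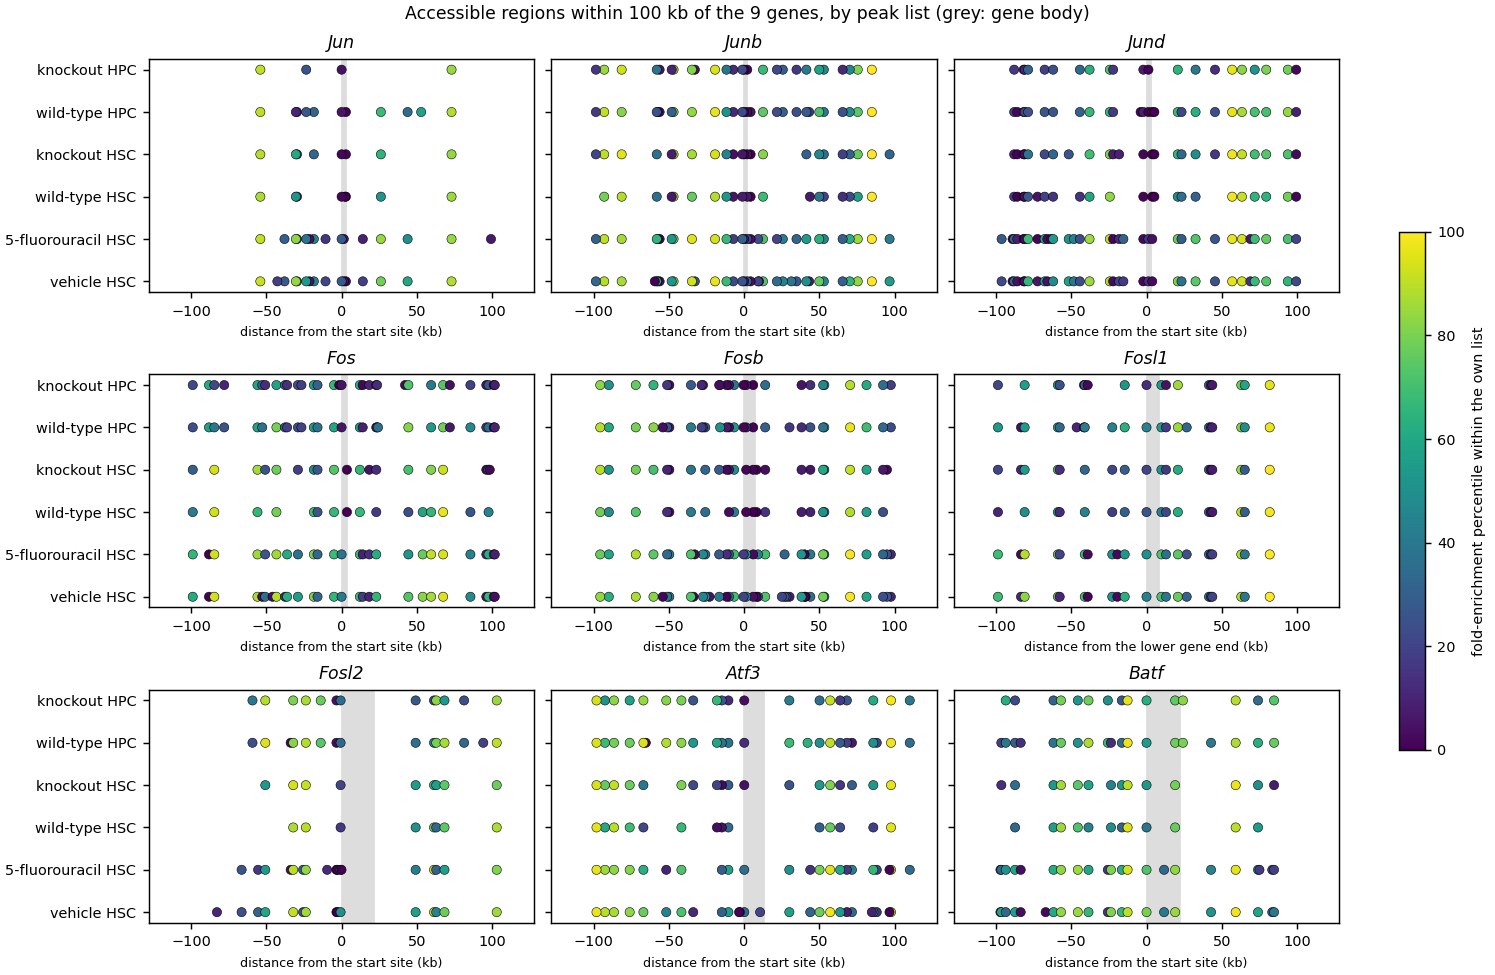
Each point is a region within 100 kb of 1 of the 9 genes, placed by its distance from the gene's start in kb (for Fosl1, from its lower end) and by peak list, and coloured by the percentile of its fold enrichment within that list. Knockout HPC has 5 regions near Jun, against 13 in wild-type HPC, while Fos has 34 in knockout HPC and 16 in wild-type HSC.

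Most of the strongest regions of these windows lay far from the starts. The fold enrichment and −log10 p given here are the authors' own values for each peak, used only to describe and rank regions within their list. Jun, which encodes the founding AP-1 subunit, had 3 regions in all 6 lists. Its region at −54.0 kb (a minus sign means upstream) had fold enrichments of 25.2 in knockout HPC, 25.6 in wild-type HPC, 25.7 in knockout HSC, 23.9 in wild-type HSC, 22.4 in 5-fluorouracil HSC and 22.8 in vehicle HSC. It stood at percentiles between 87.4 and 91.4 of its lists. The Jun region at 73.0 kb downstream, nearest to Mysm1, ran from 19.7 to 24.8. Batf, which encodes an inhibitory and IRF-dependent partner of Jun proteins, had a region at −12.6 kb with 28.9 in knockout HPC, 31.2 in wild-type HPC, 26.3 in knockout HSC, 28.1 in wild-type HSC, 23.9 in 5-fluorouracil HSC and 22.1 in vehicle HSC. For Fosl2, a Fos-related subunit without the strong activating end of Fos, the region at −23.8 kb ran from 19.3 to 26.9. That at −32.1 kb, nearest to Babam2, ran from 21.4 to 28.6. A region 84.9 kb downstream of Junb, nearest to Gcdh, had a median percentile over the lists of 99.6, and one near Fosl1, nearest to Snx32, of 98.9.

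For Fos the regions in all 6 lists varied more in rank. At −84.6 kb, nearest to Tmed10, the fold enrichment was 9.66 in knockout HPC and 12.0 in wild-type HPC, at percentiles 21.8 and 40.5. In knockout HSC it was 27.9, in wild-type HSC 26.6, in 5-fluorouracil HSC 23.4 and in vehicle HSC 23.5, at percentiles between 92.5 and 92.8. This difference was remarked on after the values were seen. How many of all regions differ in the same way between the HPC and HSC lists was not counted. The Fos regions at 67.4 kb, nearest to Jdp2, and at −43.3 kb ranged from 19.3 to 29.9 and from 15.8 to 21.6. Since the lists differ in length and were called separately, these ranks are a description of each list and not a measured change.

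Turning to the starts, Fosl1 had no annotated start and was counted by a region within 1 kb of either gene end, a looser rule. Counted so, all 9 genes had a start region in knockout HPC, wild-type HPC, 5-fluorouracil HSC and vehicle HSC, whereas 6 had one in knockout HSC and 5 in wild-type HSC. The shares over 17492 protein-coding genes, each taken by annotated starts, were 55% in knockout HPC, 59.7% in wild-type HPC, 55.9% in knockout HSC, 52.7% in wild-type HSC, 63.7% in 5-fluorouracil HSC and 65.3% in vehicle HSC. Of the 9, 5 had one in all 6 lists, against 48.7% of genes. Fos, Fosb and Jund had a region in every list but those of both 8-week HSC groups, a pattern shown by 1.37% of genes. Atf3 had one in every list but wild-type HSC, as did 2.65%. Among the 9394 genes with a start region in both HPC lists and both 16-week lists, 7.48% lacked one in wild-type HSC and 2.54% in both 8-week HSC lists. Of the 9 genes, with Fosl1 taken by either gene end, 4 lacked one in wild-type HSC and 3 in both. The starts of the progenitor markers Cd48 and Fcgr3 followed the same lists as those of Fos, Fosb and Jund, and so did the stem cell marker Slamf1. Procr, also a stem cell marker, followed the lists of Atf3, and the progenitor markers Irf8 and Klf1 were in all 6. The part of cell makeup in these results was not tested. In bulk samples, fewer open cells and less open chromatin per cell cannot be told apart.

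Fos (chr12:85473890-85477274), the prototype immediate early gene, had a region over its start with a fold enrichment of 6.40 in knockout HPC, 5.79 in wild-type HPC, 8.31 in 5-fluorouracil HSC and 8.54 in vehicle HSC. In knockout HSC and wild-type HSC the nearest regions lay 3400 and 3358 bp from the start. Those were a low region past the 3′ end of the gene, chr12:85477248-85479175 in the merged lists, with 3.27 in knockout HSC and 3.48 in wild-type HSC, at percentiles 0.225 and 0.263. The start thus had a region in all lists but those of 8-week HSC, where the nearest one lay at the far end of the gene. Fosb, its close relative, had 3.25 in knockout HPC and 4.43 in wild-type HPC at 211 and 194 bp from the start, and 5.49 in 5-fluorouracil HSC and 5.75 in vehicle HSC over it. In knockout and wild-type HSC the nearest region lay 1105 and 1154 bp away, inside the gene, just past the 1 kb limit. A region in the body of Fosb, at 1.40 kb, was in all 6 lists, with 6.55 in knockout HPC, 7.06 in wild-type HPC, 4.53 in knockout HSC, 4.80 in wild-type HSC, 10.6 in 5-fluorouracil HSC and 8.94 in vehicle HSC.

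Jun (chr4:95049036-95052222) had a region over its start in all 6 lists. Its fold enrichment was 6.23 in knockout HPC, 5.66 in wild-type HPC, 4.91 in knockout HSC, 4.62 in wild-type HSC, 6.79 in 5-fluorouracil HSC and 6.67 in vehicle HSC. These sat low in their lists by fold, at percentiles from 0.840 to 27.9, and higher by −log10 p, from 62.5 to 91.7. Junb, a Jun relative that can oppose Jun, had a weak region over its start with 3.19 in knockout HPC, 3.34 in wild-type HPC, 3.28 in knockout HSC, 3.76 in 5-fluorouracil HSC and 3.46 in vehicle HSC. It had none over the start in wild-type HSC, where a region 893 bp upstream, found in all 6 lists, counted as its start region. Jund, the most steadily expressed Jun gene in many tissues, had no region over the start base itself in any list. Its region began between 603 and 614 bp inside the gene, with 3.41 in knockout HPC, 3.22 in wild-type HPC, 5.33 in 5-fluorouracil HSC and 4.95 in vehicle HSC. In knockout and wild-type HSC the region nearest to the Jund start lay 2020 and 2008 bp away.

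Atf3 (chr1:191170296-191183333), a stress-induced repressor or activator depending on its partner, had 5.83 in knockout HPC, 7.45 in wild-type HPC, 6.44 in knockout HSC, 8.01 in 5-fluorouracil HSC and 7.59 in vehicle HSC over its start. In wild-type HSC the nearest region was 10273 bp away. Batf (chr12:85686720-85709087) was the most open of the 9 at its start by fold, with 16.9 in knockout HPC, 14.7 in wild-type HPC, 15.7 in knockout HSC, 12.7 in wild-type HSC, 15.7 in 5-fluorouracil HSC and 17.6 in vehicle HSC. Fosl2 was open just upstream of its start in all 6 lists, with 11.7 in knockout HPC, 10.7 in wild-type HPC, 10.1 in knockout HSC, 9.28 in wild-type HSC, 10.1 in 5-fluorouracil HSC and 9.99 in vehicle HSC. In 5-fluorouracil HSC a second region, of 2.07, covered the start base, and no other list held it. Fosl1, a Fos relative of growth responses for which the table gives no strand, had a region at 1 gene end in all 6 lists, with 8.21 to 12.6.

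For regions over the start base itself, Fosl1 was again taken by either gene end. Such a region was found for 5 of the 9 genes in knockout HPC (48.8% of all genes), 6 in wild-type HPC (53.5%), 5 in knockout HSC (50.1%), 2 in wild-type HSC (47%), 8 in 5-fluorouracil HSC (59.6%) and 7 in vehicle HSC (61.1%). By this rule only Fos was in every list but both 8-week HSC lists, as were 1.17% of genes. Fosb was then in the 16-week lists alone and Jund in none, so their pattern rests on the 1 kb limit. By fold enrichment the starts of the 9 genes ranked low in their lists. Their median percentile was 4.66 in knockout HPC, 5.57 in wild-type HPC, 12.5 in knockout HSC, 16.0 in wild-type HSC, 27.9 in 5-fluorouracil HSC and 34.7 in vehicle HSC. Over the start regions of all genes the median was between 52.3 and 66.0. The sides were not counted alike. Member medians took 1 region per gene, the nearest to the start, over 9 genes, or 6 in knockout HSC and 5 in wild-type HSC. Over all genes a gene could count more than once, with 10184 start regions for 9624 genes in knockout HPC. For Fosl2 in 5-fluorouracil HSC the region taken was that of 2.07, at percentile 0.187. By −log10 p the member medians lay between 36.2 and 83.0, against 63.6 to 78.7 over all genes, and in vehicle HSC the members' median was the higher. The median start region of a member was wider than that of all genes in each list, at 754 bp against 637 bp in knockout HPC and 1376 bp against 1036 bp in vehicle HSC.

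**Figure D2:**
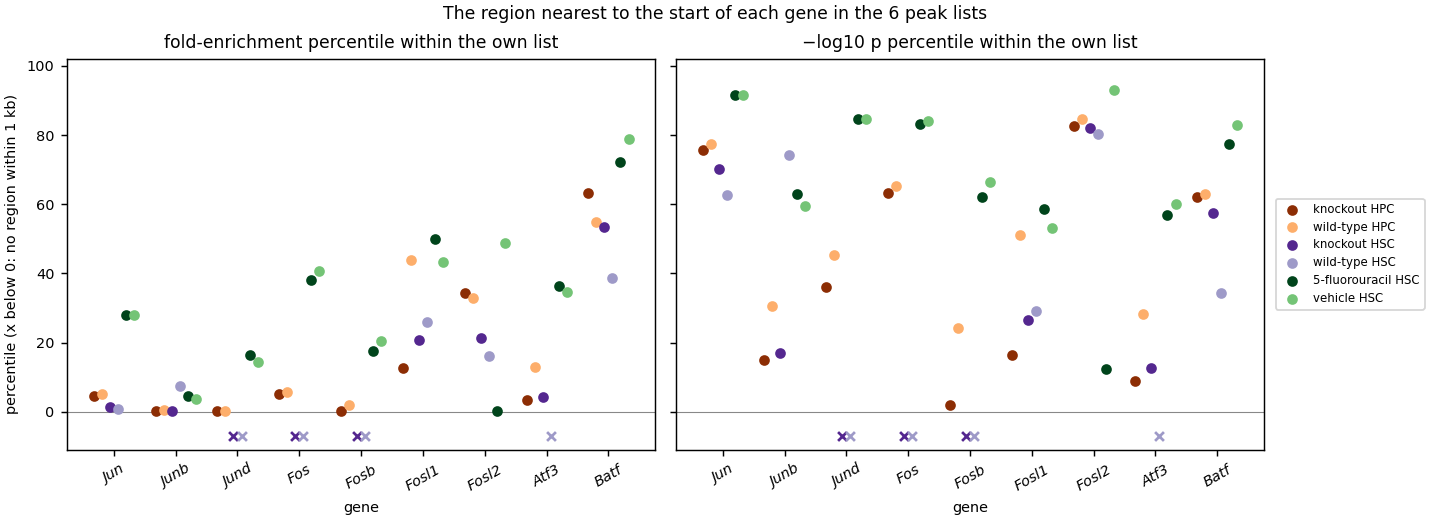
The percentile, within its own list, of the region nearest to each gene's start by fold enrichment (left) and by −log10 p (right), with a cross where no region lay within 1 kb. Crosses stand for Jund, Fos and Fosb in knockout and wild-type HSC and for Atf3 in wild-type HSC, and the Jun start runs from 0.840 to 27.9 by fold and from 62.5 to 91.7 by −log10 p.

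Beside the missing start of Fos, low and wide regions lay at the 3′ ends of Fos, Jun and Jund in the 8-week HSC lists. They were picked out after their values were seen. At Jun, chr4:95048048-95049531 spanned the gene's end with 3.25 in wild-type HPC, 4.57 in knockout HSC, 3.71 in wild-type HSC and 1.55 in the vehicle list. Downstream of Jund, chr8:70702093-70704476 had 2.57 in wild-type HPC, 3.27 in knockout HSC and 3.33 in wild-type HSC. These regions of Jun and Jund were not in the knockout HPC or 5-fluorouracil lists. The Fos region was in both 8-week HSC lists and no other, a pattern shared by only 19 of all 94178 regions.

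The knockout and wild-type HSC lists were compared first, for regions near these genes that 1 of them lacks. Of the 167 knockout HSC regions near the 9 genes, 30 had no overlapping region in wild-type HSC (18.0%, interval 12.9 to 24.5). Over the whole knockout HSC list the share was 25.9%. In the other direction 7 of 142 wild-type HSC regions were absent from knockout HSC (4.93%, 2.41 to 9.83), against 9.99% of the list. Fos had 6 of 20 knockout regions absent from wild-type HSC and Atf3 5 of 19, while Jun had 1 of 9 and Fosl2 1 of 9. The wild-type HSC list was the shorter, and 25 of 26 merged regions of this kind were in vehicle HSC, which is also wild type (96.2%, against 92.9% over all such regions). With both lists cut to the same number of regions the order turned round, to 9.86% on the knockout side and 11.3% on the wild-type side, against 15.3% and 15.1% of the lists cut in the same way.

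The strongest of the knockout-only regions was at −60.2 kb from Fosb, nearest to Ppp1r13l, with a fold enrichment of 19.5 at percentile 70.5 of the knockout HSC list. Next came the region at −50.7 kb from Fosl2 (nearest to Babam2) with 15.8 and that 96.7 kb downstream of Junb (nearest to Syce2) with 11.9. All of these were in both 16-week lists too. In wild-type HSC and not knockout HSC the strongest was 53.9 kb downstream of Fos (chr12:85527620-85528053), with 16.3. It was in both 16-week lists too, and in neither knockout list nor wild-type HPC. The median −log10 p percentile was 16.1 for the 30 knockout-only regions and 67.4 for the 137 shared ones, so regions of 1 list were mostly weak.

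In HPC the missing regions ran the other way. Of 189 knockout HPC regions, 7 were absent from wild-type HPC (3.70%, 1.81 to 7.45), against 6.96% of the list. Of 217 wild-type HPC regions, 39 were absent from knockout HPC (18.0%, 13.4 to 23.6), against 25.9%. With lists of equal length these became 9.52% for knockout HPC and 9.29% for wild-type HPC, against 12.7% and 13.5% of the cut lists. Wild-type HPC pooled 4 samples and knockout HPC 2, so genotype and samples pooled cannot be told apart in this pair. Jun had the largest share of the 9, with 8 of 13 wild-type HPC regions absent from knockout HPC (61.5%, 35.5 to 82.3). Fos had 1 of 30 (3.33%) and Junb 3 of 30. Jun was picked out of 9 genes after its values were seen, and its interval takes no account of that.

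The Jun regions missing from knockout HPC lay on both sides of the gene. The strongest was 26.1 kb downstream, chr4:95025811-95026456, with a fold enrichment of 17.7 at percentile 67.7 of wild-type HPC. That region and a pair at −29.6 kb and −30.4 kb were in every list but knockout HPC. Those 3 were among 10 member regions of that pattern (3.76%, against 2.41% of all merged regions). A region 52.9 kb downstream of Jun, nearest to Mysm1, with 15.3, was in wild-type HPC alone. So was one 42.2 kb downstream of Atf3, nearest to Fam71a, with 16.7. The 5 regions of knockout HPC near Jun lay at the start, −54.0 kb, −23.5 kb and 73.0 kb in the merged lists. Set against knockout HSC instead, 5 of 9 Jun regions were absent from knockout HPC (55.6%, 26.7 to 81.1), against 21.9% of the knockout HSC list. Both comparisons share the knockout HPC list and are not independent.

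In knockout HPC and not wild-type HPC the named regions near Fos were at −50.8 kb (nearest to Tmed10) with 8.28 and 18.4 kb downstream with 7.71. The one near Junb was at −32.7 kb, nearest to Best2, with 5.85. Both Fos regions were also in knockout HSC and in both 16-week wild-type lists. Fos had 4 of 34 knockout HPC regions absent from wild-type HPC (11.8%), and no other member had more than 1. Jun, Jund, Fosl2, Atf3 and Batf had 0.

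Repeated 5-fluorouracil, which kills dividing cells and drives stem cells into cycle, was compared with vehicle in HSC of the same age. Of 216 regions in 5-fluorouracil HSC 8 were absent from vehicle HSC (3.70%, 1.89 to 7.14), against 5.61% of the list. Of 234 in vehicle HSC 25 were absent from 5-fluorouracil HSC (10.7%, 7.34 to 15.3), against 16.2%. With lists of equal length the shares were 8.33% for 5-fluorouracil HSC and 2.94% for vehicle HSC, against 8.93% and 9.41% of the cut lists. Fosb had 8 of 39 vehicle regions absent after 5-fluorouracil and Atf3 5 of 26, and Jund and Fosl1 had 0. Fosl2 had 3 of 17 5-fluorouracil regions absent from vehicle, the most of the 9.

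These one-list regions were weak. The strongest found with 5-fluorouracil and not vehicle had a fold enrichment of 7.79, lay 110.1 kb downstream of the Atf3 start near Nsl1, and was also in both HPC lists. Those near Batf, at 75.0 kb (nearest to Flvcr2), and Fosl2, at −9.60 kb, had 5.36 and 4.79 and were in no other list. On the vehicle side the strongest had 8.20, 31.4 kb downstream of Junb, nearest to Rtbdn. All 9 starts were in both lists.

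**Figure D3:**
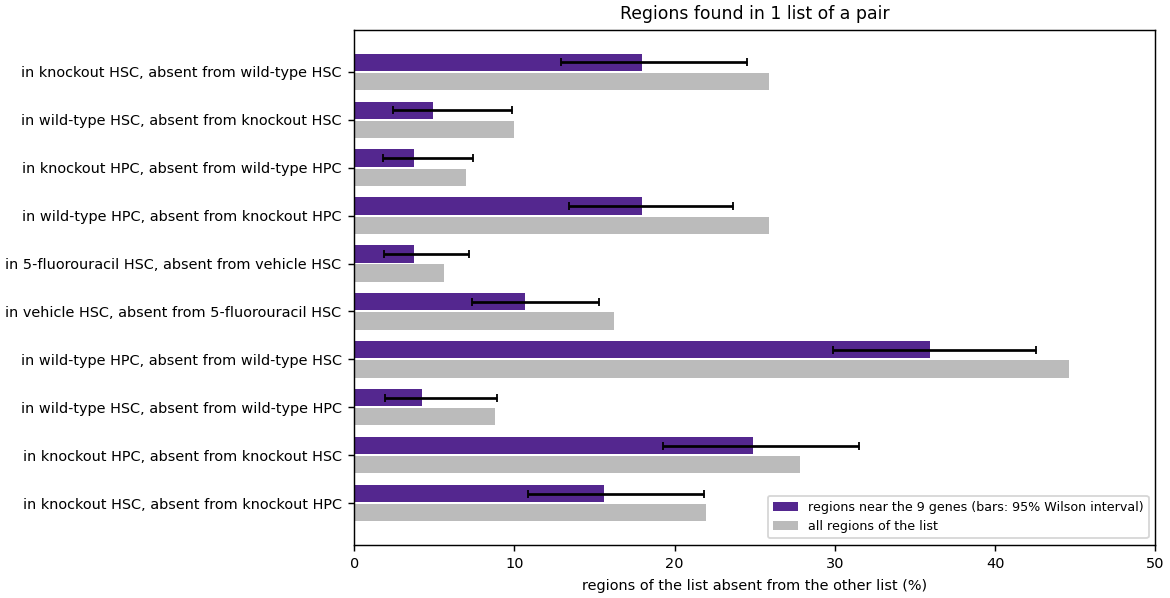
The share of regions of 1 list that had no overlapping region in the other list of the pair, for regions near the 9 genes (dark, with 95% Wilson intervals) and for all regions of the list (grey). The dark share is the lower in all 10 rows, for example 18.0% against 25.9% for knockout HSC regions absent from wild-type HSC.

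Progenitors and stem cells differed most. Of the 217 wild-type HPC regions 78 were absent from wild-type HSC (35.9%, 29.9 to 42.5), against 44.6% of the list. Of 142 wild-type HSC regions only 6 were absent from wild-type HPC (4.23%, 1.95 to 8.91), against 8.77%. With lists of equal length the shares were 17.1% for wild-type HPC and 15.5% for wild-type HSC, against 24.3% and 23.7% of the cut lists. Wild-type HPC pooled 4 samples and wild-type HSC 2, so cell type and samples pooled cannot be told apart in this pair. Fos led with 16 of 30 HPC regions absent from HSC (53.3%, 36.1 to 69.8), followed by Fosl2 with 7 of 15 (46.7%), and Jund was lowest with 5 of 29 (17.2%). The places of Fosl2 and Jund were not steady. At equal list length Fosl2 had 22.2% and Jund 9.52%, within 50 kb 30% and 30.8%, and by nearest gene 40% and 66.7%. In the knockout, 47 of 189 HPC regions were absent from HSC (24.9%, 19.2 to 31.5), against 27.8% of the list, and 26 of 167 HSC regions were absent from HPC (15.6%, 10.9 to 21.8), against 21.9%. Fos again led, with 16 of 34 (47.1%, 31.5 to 63.3), and Jund and Fosl1 were lowest with 2 of 23 and 2 of 19. The HPC and HSC lists of the 2 genotypes are separate samples, but Fos was picked out after its values were seen.

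With both lists of a pair cut to the same number of regions, the Fos share was 33.3% in wild type and 35.7% in the knockout. Over all regions the shares at that length were 24.3% in each genotype. The Jun share in wild-type HPC against knockout HPC was then 3 of 8 (37.5%), against 13.5% over the cut list.

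**Figure D4:**
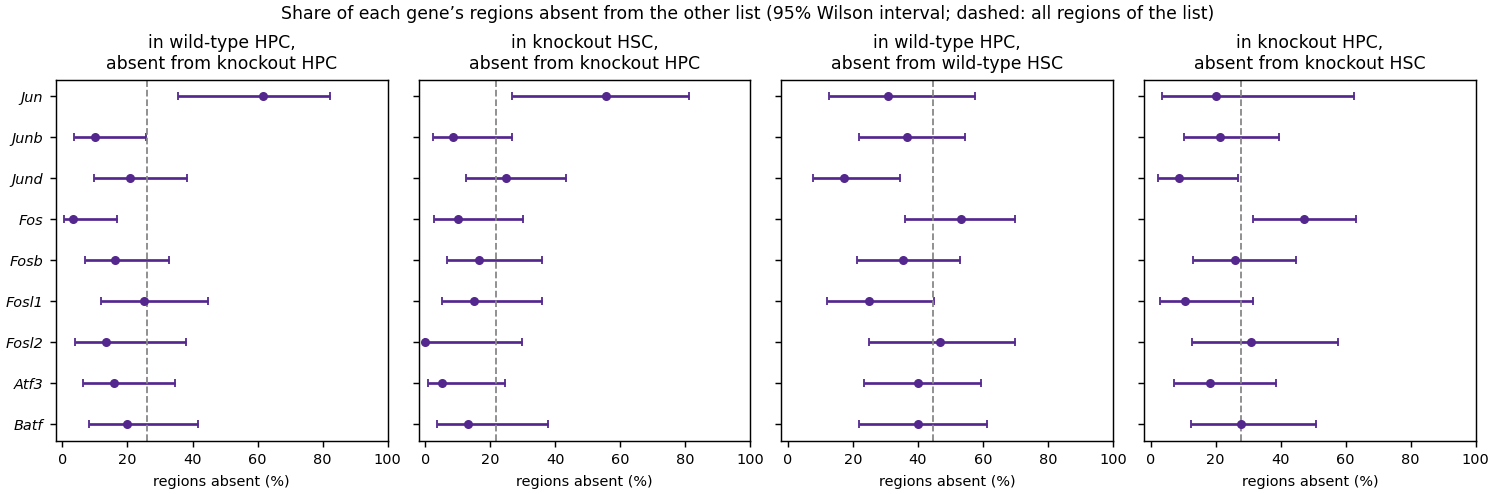
For each gene, the share of its regions in 1 list that had no overlapping region in another (points, with 95% Wilson intervals), and the share over all regions of the list (dashed line). Jun stands at 61.5% and 55.6% in both panels for regions absent from knockout HPC, and Fos at 53.3% and 47.1% in both panels for HPC regions absent from HSC.

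Named regions of HPC included 3 with high fold enrichment. At −50.7 kb from Fosl2, nearest to Babam2, wild-type HPC had 28.8 at percentile 94.7, and the region was in every list but wild-type HSC. At −51.7 kb from Atf3 (chr1:191234783-191235263) it had 24.8, with 21.7 in knockout HPC, and the region was in neither 8-week HSC list but in both 16-week lists. At −60.2 kb from Fosb it had 22.4. In knockout HPC against knockout HSC the strongest was 24.1 kb downstream of the Batf start (chr12:85710713-85711062), with 22.0 at percentile 82.4, and it was in no HSC list. The region at −13.9 kb from Fosl2 (chr5:32122178-32122905), with 20.5 in knockout HPC, was also in both HPC lists and no HSC list.

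Over the 6 lists together, 117 of the 266 regions were in all of them (44.0%, 38.1 to 49.99), against 32.2% of all 94178 merged regions. Among regions whose nearest gene was the member it was 28 of 79, closer to the share of all regions. In both HPC lists and no HSC list there were 11 (4.14%, against 4.02%), of which 4 were near Fos, 3 near Fosl2, 2 near Fosb and 1 each near Batf and Fosl1. None lay in all 4 HSC lists and no HPC list, which 1.83% of all regions did, and a count of 0 in 266 allows a share of up to 1.13% (3 counts of 266, where the Wilson upper bound is 1.42%). In every list but both 8-week HSC lists there were 20 (7.52%, 4.92 to 11.3), against 4.42%, and 6 of these were near Fos, its start among them. In both 16-week lists only there were 25 (9.40%, against 10.8%), and in a single list 34 (12.8%, against 18.1%).

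A few regions were called in the knockout lists and not in the 8-week wild-type lists. With read depth unknown, this does not show that they were closed in wild-type cells. Regions in both knockout lists and no 8-week wild-type list numbered 3 of 266 (1.13%, 0.384 to 3.26), against 521 of all 94178 (0.553%). Of these 2 were near Fos, at −50.8 kb and 18.4 kb, and 1 near Fosb (chr7:19326325-19327501). All 3 were in both 16-week wild-type lists. Those near Fos ranked low by fold enrichment in knockout HPC, at percentiles 13.2 and 10.2. In both 8-week wild-type lists and no knockout list there were 0, against 895 of all regions (0.950%). A count of 0 in 266 allows up to 1.13% (Wilson upper bound 1.42%), so it does not set these genes apart from all regions. A region at −18.0 kb from Atf3 (chr1:191201177-191201609) was in all 4 lists of 8 weeks and neither of 16 weeks, as were 41 of all regions. Its fold enrichment was 17.8 in knockout HPC, 15.7 in wild-type HPC, 9.93 in knockout HSC and 6.25 in wild-type HSC.

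**Figure D5:**
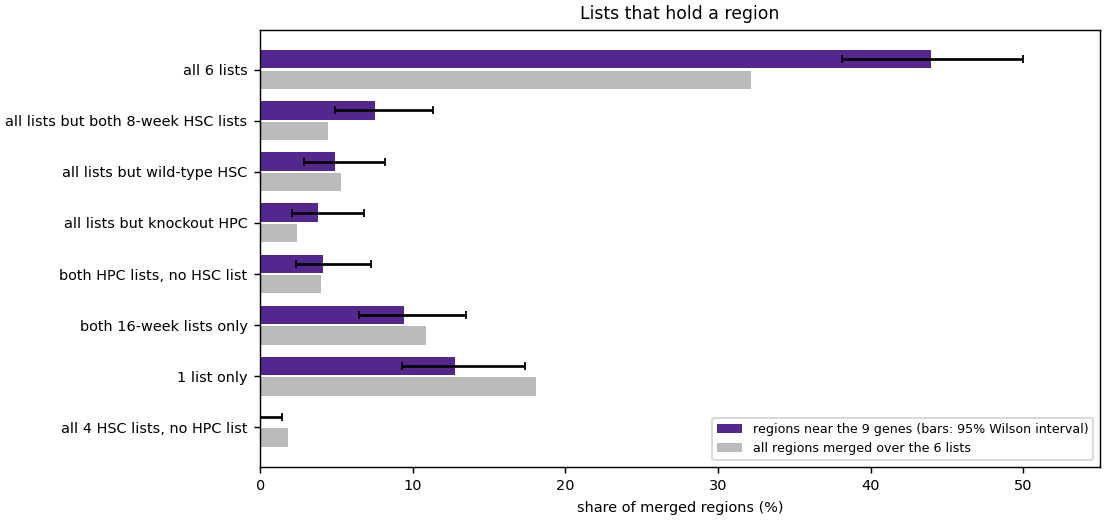
The share of merged regions held by each combination of lists, for the 266 regions near the 9 genes (dark, with 95% Wilson intervals) and for all 94178 (grey). Regions in all 6 lists made up 44.0% near the 9 genes and 32.2% over all lists' regions, and none near the 9 genes was in all 4 HSC lists and no HPC list.

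The upstream and neighbouring genes of the pathway were counted by their nearest regions. Of 23 MAP kinase, upstream kinase and dual-specificity phosphatase genes, 7 had more regions in knockout HSC alone than in wild-type HSC alone and 3 had fewer, where over all 21887 protein-coding genes 27.2% had more and 6.61% fewer. Map3k1, a kinase that starts the JNK cascade, had 4 regions in the knockout alone and 0 in wild type alone, and Map2k6, of the p38 branch, had 2 and 4. In HPC 1 of the 23 had more in the knockout and 11 fewer, against 4.39% and 34.3% of all genes. Map3k5, a stress kinase, had 1 in the knockout alone and 6 in wild type alone there. With 5-fluorouracil 4 had more and 13 fewer, against 6.02% and 26.8%, Map2k1 and Map2k4 with 0 and 3 each.

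Of 23 other leucine zipper factors (ATF, CREB, MAF, BACH, NFE2 and JDP groups), 14 had more regions in knockout HSC alone. In wild-type HSC alone 0 had more, and over all protein-coding genes the shares were 27.2% and 6.61%. In HPC 2 had more in the knockout and 14 fewer, against 4.39% and 34.3% of all genes. With 5-fluorouracil 4 had more and 7 fewer, against 6.02% and 26.8%. Bach2, a transcriptional repressor active in lymphoid cells, had 5 regions in the knockout alone and 3 in wild type alone in HSC, and 4 and 10 in HPC. Jdp2, the AP-1 repressor between Fos and Batf, had 3 and 1 in HSC and 0 and 4 in HPC. Between wild-type HPC and wild-type HSC, 17 of the 23 had more in HPC and 0 fewer, against 45.0% and 3.12% of all genes, with 15 HPC-only and 0 HSC-only regions near Bach2 and 10 and 0 near Jdp2. Between knockout HPC and knockout HSC, 8 had more in HPC and 7 fewer, against 23.0% and 15.7% of all genes. In each of these comparisons the larger number of these factors lay with the longer list. The part of list length was not tested.

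Of 18 other immediate early genes, 8 had more in knockout HSC alone and 4 fewer, 1 more and 11 fewer in knockout HPC, 2 more and 7 fewer with 5-fluorouracil, and 15 more and 2 fewer in wild-type HPC than in wild-type HSC. Over all protein-coding genes the shares with more and fewer were 27.2% and 6.61% in knockout HSC, 4.39% and 34.3% in knockout HPC, 6.02% and 26.8% with 5-fluorouracil, and 45.0% and 3.12% in wild-type HPC over wild-type HSC. Nr4a3, a nuclear receptor, had 4 and 0 in HSC, counted in the same way. Ier5, a stress-response gene, had 3 and 0 there, 1 and 5 with 5-fluorouracil against vehicle, and 11 and 1 in wild-type HPC against wild-type HSC. Klf6, a zinc finger factor, had 0 and 4 in HPC. Of the 6 SRF and ternary complex genes, 3 had more and 0 fewer in knockout HSC, and Mrtfb, an actin-regulated partner of SRF, had 6 and 1. In knockout HPC 0 had more and 3 fewer, with 5-fluorouracil 1 and 1, and in wild-type HPC over wild-type HSC 4 and 1.

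Of the 12 partners of Batf and known AP-1 targets, 2 had more and 2 fewer in knockout HSC, 2 and 6 in knockout HPC, 4 and 2 with 5-fluorouracil, and 9 and 0 in wild-type HPC over wild-type HSC. All protein-coding genes had more and fewer in 27.2% and 6.61%, 4.39% and 34.3%, 6.02% and 26.8%, and 45.0% and 3.12% of cases in the same 4 comparisons. Ccnd1, which encodes cyclin D1, had 10 HPC-only regions and 1 HSC-only region, and Irf8, the partner of Batf, 6 and 0. Of the 9 members counted the same way, 5 had more in knockout HSC and 0 fewer, 2 and 3 in knockout HPC, 1 and 4 with 5-fluorouracil, and 9 and 0 in wild-type HPC over wild-type HSC, to be read beside those same shares of all genes. In knockout HPC Jun had 0 regions in the knockout alone and 6 in wild type alone, and Fos 3 and 1, opposite in sign.

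By the spread of their nearby regions over the 6 lists, the genes most like the 9 members summed were Pip4k2b, Ddx56 and Slc13a2. The members had 189, 217, 167, 142, 216 and 234 regions in knockout HPC, wild-type HPC, knockout HSC, wild-type HSC, 5-fluorouracil HSC and vehicle HSC. Pip4k2b had 23, 26, 20, 17, 26 and 28 in the same lists. The Euclidean distance between their shares was 0.00241, and it was 0.00470 for Ddx56 and 0.00561 for Slc13a2, out of 15773 genes with at least 30 regions summed over the lists.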

How the data were processed

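ATAC-seq was available for 18 samples in 6 groups. Bowtie2, MACS2 and the build mm10 (GRCm38) are named per the submitters' processing notes, which give no version. The labels list total RNA as the molecule, which is at odds with ATAC-seq. All samples of a group name 1 list in the labels, so each deposited list was taken as pooled. For each peak the authors' list gives a fold enrichment (a ratio of signal to local background), a −log10 p-value, a score and a summit offset, and the authors' score was not used. Depth is not known, and lists grow with depth and samples pooled. A further value column of each list, 6 in all, was not used.

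Overlapping rows of a list were merged into regions. A region was absent from another list where no region there overlapped it by at least 1 bp, and counts over 6 lists used regions merged across them. Percentiles rank a region within its list. Genes came from a RefSeq table of GRCm38.p6 and start sites from its promoter table, which matched 8 of the 9 genes. Named were the 9 genes at their starts, up to 3 regions per gene in all 6 lists, up to 3 per comparison and direction, patterns of 5 or fewer regions, up to 4 genes per pathway list and the 3 genes of most similar spread. Members and lists were chosen with earlier results of these data known. Equal list length, the weakest 25% of rows removed, other overlap rules, a 50 kb window and nearest-gene assignment were tried. Overlap counting was tested on simulated data. Python 3.11.15, pandas 2.3.3, numpy 2.4.6, scipy 1.17.1 and matplotlib 3.10.9 were used.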

Additional observations from a re-analysis of the deposited data

How the results depend on the processing

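Of 60 alternative values for the 10 shares of regions absent from the other list, 42 stayed within the reported interval. With both lists of a pair cut to the same number of regions, the share was 9.86% for knockout HSC absent from wild-type HSC and 11.3% for wild-type HSC absent from knockout HSC, 9.52% for knockout HPC absent from wild-type HPC and 9.29% for wild-type HPC absent from knockout HPC, 8.33% for 5-fluorouracil absent from vehicle and 2.94% for vehicle absent from 5-fluorouracil, and 17.1% for wild-type HPC absent from wild-type HSC and 15.5% for wild-type HSC absent from wild-type HPC. Over all regions of the cut lists the same 8 shares were 15.3%, 15.1%, 12.7%, 13.5%, 8.93%, 9.41%, 24.3% and 23.7%. Cutting the longer list removes its weakest regions by construction. Without the weakest 25% of rows, knockout HPC absent from wild-type HPC was 1.20%, against 4.38% over all regions in that setting. Counting a region as absent only with nothing within 1 kb gave 1.85% for 5-fluorouracil, 6.41% for vehicle, 29.0% for wild-type HPC against wild-type HSC and 19.0% for knockout HPC against knockout HSC. Over all regions, in the same order, the shares were then 4.49%, 14.2%, 40.5% and 24.5%. Windows of 200 bp around summits gave 10.5% for wild-type HSC absent from knockout HSC, 25.2% for wild-type HPC absent from knockout HPC, 13.8% for wild-type HSC absent from wild-type HPC and 27.0% for knockout HSC absent from knockout HPC. Over all such windows, in the same order, the shares were 14.9%, 31.4%, 13.4% and 27.4%. The values of 13.8% and 27.0% thus lay at the share of all windows. With a region given to its nearest gene, wild-type HSC absent from wild-type HPC was 10.5%, against 8.77% of the list. Knockout HPC was then 7.14% against wild-type HPC (6.96% of the list) and 30.4% against knockout HSC (27.8%). These shares near the 9 genes were thus no longer the lower, while the others stayed below those of their lists. The cause of these shifts was not tested. Settings added after seeing the data follow. The number of regions in all 6 lists was 62 of 158 in a 50 kb window and 28 of 79 by nearest gene, which assign fewer regions. Over all merged regions the share was 32.2%, and the nearest-gene count lay close to it. A region over the start base itself was found for 5 of the 9 genes in knockout HPC and 2 in wild-type HSC. The Jun share absent from knockout HPC ranged from 37.5% to 72.7% over 6 alternatives in wild-type HPC and from 4 of 8 regions to 71.4% in knockout HSC. The Fos share absent from HSC ranged from 33.3% to 59.0% in wild-type HPC and from 35.7% to 47.5% in knockout HPC. The order of Fosl2 and Jund in wild-type HPC against wild-type HSC turned round within 50 kb (30% and 30.8%) and by nearest gene (40% and 66.7%).

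No paired analysis was possible because each group has 1 pooled list, and for the same reason no replicate was left out. Depth limits what an absent region means, and read depth is unknown.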
